A study of Mus musculus with 9 samples.

Results

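The enzymes that build cholesterol and fatty acids were followed in mouse leukaemia cells after knockdown of Syncrip, which encodes an RNA-binding protein related to the hnRNPs. The members were the count table rows whose gene symbol belonged to a list of 35 genes, among 38926 symbols in each table. By role, 18 are enzymes of cholesterol synthesis, 3 are regulators of sterol synthesis (Insig1, Srebf1 and Srebf2) and 14 are enzymes that make, elongate, desaturate or activate fatty acids. All 35 were found in every table, none stood in more than 1 entry, and all 35 passed the filter on low counts.

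The cells came from a mouse leukaemia made with MLL-AF9, a fusion of the histone methyltransferase MLL (KMT2A) and AF9, and had been passaged through mice by serial transplantation. Every group carried the fusion. The 3 control libraries came from cells with a control hairpin, which the sample labels call scrambled and the design text calls a hairpin against luciferase. The other groups carried shRNA-1 or shRNA-2, each a short hairpin RNA against Syncrip, with 3 libraries per hairpin. RNA was taken at day 4 after transduction in the knockdown cells, and the labels give the same time for the control treatment. By the design text, transduction and processing were separate for every sample. The sources used here do not say whether each culture had its own donor mouse, so the p-values measure the spread between these cultures of 1 leukaemia.

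Library totals ran from 9559638 to 19483923 counts. Levels are given as CPM, the counts scaled to a common library size, and can be compared between libraries for 1 gene, not between genes. Syncrip stood at 227 ± 17.5 CPM in the controls, 17.8 ± 2.13 under shRNA-1 and 56.7 ± 9.05 under shRNA-2 (mean ± SD, n = 3), which was 12.8-fold and 4.00-fold lower (edgeR's quasi-likelihood test, adjusted p = 3.79e-07 and 2.19e-06). Counts under ribosomal RNA genes took 6.97% ± 1.92 of the control libraries, 15.4% ± 3.69 under shRNA-1 and 10.7% ± 4.84 under shRNA-2. Within their groups, shRNA-1 replicate 3 had the highest share, 19.3%, and shRNA-2 replicate 1 the lowest, 6.10%. Some results that rest on these libraries are also given without them. Summed markers of mature neutrophils (10 genes in the tables) ran from 12197 to 12663 CPM in the controls, from 29076 to 37231 under shRNA-1 and from 35293 to 50193 under shRNA-2. Most of that sum was S100a8 (5305 to 6137 CPM in the controls) and S100a9 (4604 to 4987). Not every neutrophil marker rose with both hairpins. Ltf, picked after its values were seen, ran from 11.7 to 13.1 CPM in the controls, 30.2 to 42.2 under shRNA-1 and 4.52 to 6.93 under shRNA-2. The 12 monocyte and macrophage markers summed to 705 to 972 CPM in the controls, 812 to 931 under shRNA-1 and 1232 to 1885 under shRNA-2. The 8 markers of leukaemic myeloid progenitors, which check the labelled cell type, summed to 1159 to 1278 CPM in the controls, 1410.2 to 1520 under shRNA-1 and 1341 to 1631 under shRNA-2. Members of that list went different ways: Mpo ran from 14.0 to 25.04 CPM in the controls, 494 to 575 under shRNA-1 and 6.01 to 12.8 under shRNA-2, Cd34 from 125 to 152, 24.6 to 30.5 and 86.1 to 119, Hoxa9 from 378 to 440.2, 262 to 279 and 140 to 154, and Fcgr3 from 188 to 217, 223 to 316 and 454 to 712. These 4 were picked after their values were seen. Erythroid, B lymphoid and T lymphoid markers summed to at most 1.85, 18.4 and 4.80 CPM in any library, and stromal and endothelial markers to 5.38 to 29.6 CPM. The parts of ribosomal RNA and of these myeloid markers in the results below were not tested beyond the fits named beside them. The 7 adipocyte and hepatocyte markers, from cell types known for lipid synthesis, summed to at most 0.675 CPM in any library, and at least 4 of the 7 were at 0 in every library of each group. In bulk RNA, fewer cells of a type and less RNA per cell cannot be told apart.

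As background, cholesterol synthesis starts from acetyl-CoA, which is condensed to the mevalonate precursor, turned into isoprenoid units, joined to squalene, closed to the ring of lanosterol and trimmed to cholesterol. Fatty acid synthesis starts from the same acetyl-CoA: ATP citrate lyase supplies it, acetyl-CoA carboxylase makes malonyl-CoA, and fatty acid synthase assembles palmitate, which elongases and desaturases extend and modify. Both routes are controlled by the SREBP transcription factors, membrane proteins that INSIG proteins hold in the endoplasmic reticulum when sterols are plentiful and that SCAP escorts to the Golgi for cleavage when sterols are short. SREBP-2, from Srebf2, is known mainly for sterol genes and SREBP-1, from Srebf1, for fatty acid genes. Dividing leukaemia cells use both routes to supply membrane lipids.

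The stretch just upstream of a gene's start is where SREBP proteins and their partners, NF-Y at CCAAT boxes and SP1 at GC boxes, are known to bind in genes of these routes. The RefSeq table (build GRCm38.p6, the assembly of mm10) held an upstream stretch for 29 of the 35 members and none for Fdps, Fdft1, Sqle, Scd1, Scd2 and Fads1. The 250 bases before the first listed start are shown for 6 members because they span the patterns below: Hmgcs1, which did not pass the test with either hairpin, Acat2 and Lss, sterol enzymes lower with both, Srebf2, the regulator that fell most, and Fasn and Elovl6, fatty acid enzymes lower with both. Each is written 5′ to 3′ on the gene's own strand. Capitals mark CCAAT in either direction (ATTGG on the printed strand) and TCACNCCAC, a core of the classical sterol element, in either direction.
Hmgcs1: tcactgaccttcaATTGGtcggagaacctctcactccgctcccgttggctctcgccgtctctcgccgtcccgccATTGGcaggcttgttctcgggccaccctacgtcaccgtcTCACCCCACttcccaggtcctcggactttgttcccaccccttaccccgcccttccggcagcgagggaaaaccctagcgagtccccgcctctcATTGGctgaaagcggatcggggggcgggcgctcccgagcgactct
Acat2: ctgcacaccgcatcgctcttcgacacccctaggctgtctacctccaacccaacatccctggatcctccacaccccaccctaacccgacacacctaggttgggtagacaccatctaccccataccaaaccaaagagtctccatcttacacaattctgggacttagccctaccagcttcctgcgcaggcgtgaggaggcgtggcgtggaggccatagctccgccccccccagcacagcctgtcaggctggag
Lss: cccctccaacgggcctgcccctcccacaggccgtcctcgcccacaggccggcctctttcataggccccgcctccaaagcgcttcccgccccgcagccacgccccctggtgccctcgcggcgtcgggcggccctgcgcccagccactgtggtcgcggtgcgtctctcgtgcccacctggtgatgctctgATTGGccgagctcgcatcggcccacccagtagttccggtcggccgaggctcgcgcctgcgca
Srebf2: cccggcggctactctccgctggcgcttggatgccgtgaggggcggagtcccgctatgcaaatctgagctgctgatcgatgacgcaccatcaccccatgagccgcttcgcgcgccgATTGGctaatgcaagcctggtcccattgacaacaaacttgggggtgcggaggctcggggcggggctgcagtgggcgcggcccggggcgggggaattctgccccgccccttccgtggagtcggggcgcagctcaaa
Fasn: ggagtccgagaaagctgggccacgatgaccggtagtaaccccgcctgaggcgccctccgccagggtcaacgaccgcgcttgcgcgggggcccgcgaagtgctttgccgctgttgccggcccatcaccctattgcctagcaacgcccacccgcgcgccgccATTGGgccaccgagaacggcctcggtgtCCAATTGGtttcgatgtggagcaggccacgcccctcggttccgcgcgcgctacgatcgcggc
Elovl6: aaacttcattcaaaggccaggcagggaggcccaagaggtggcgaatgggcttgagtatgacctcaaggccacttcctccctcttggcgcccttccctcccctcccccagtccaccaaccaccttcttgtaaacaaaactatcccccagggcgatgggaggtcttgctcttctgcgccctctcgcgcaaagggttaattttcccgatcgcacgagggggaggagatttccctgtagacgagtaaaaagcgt

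These stretches lie at chr13:119690101-119690350 (plus strand), chr17:12960726-12960975 (minus), chr10:76531355-76531604 (plus), chr15:82147019-82147268 (plus), chr11:120824548-120824797 (minus) and chr3:129532136-129532385 (plus). Hmgcs1 carried the sterol core and 3 CCAAT boxes, Lss and Srebf2 carried 1 CCAAT box each, and Fasn carried 3, of which a pair in opposite directions overlap. Acat2 and Elovl6 carried neither pattern in this window. Searched on both strands and over any listed start, CCAAT was found for 14 of 15 sterol enzymes with a stretch (93.3%), all 3 regulators and 5 of 11 fatty acid enzymes (45.5%), beside 37.5% of 27025 genes in the table. The GC box GGGCGG was found for 14 of the 15, all 3 and 7 of 11 (63.6%), beside 35.4% of genes. The sterol core TCACNCCAC was found for Hmgcs1 and for a further start of Acsl1, beside 1.22% of genes, and the E-box CACGTG for 3 sterol enzymes, 1 regulator and 1 fatty acid enzyme, beside 6.86% of genes. No motif is contained in another, and a match describes the letters only.

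With shRNA-1, 11 of the 35 members were lower than in the controls at an adjusted p under 0.05 (31.4%) and none was higher, beside 17.3% lower and 17.4% higher (34.7% in all) among the 12663 genes tested. With shRNA-2, 18 members were lower (51.4%) and 3 were higher (8.57%), beside 24.2% lower and 24.4% higher (48.7% in all) among all genes. The same 7 members fell with both hairpins (20%, beside 9.57% of all genes), and none rose with both (beside 9.24%, or 18.8% in either direction). They are Acat2, Pmvk, Fdps and Lss of the sterol route and Acaca, Fasn and Elovl6 of the fatty acid route. The median log2 fold change over the 35 was -0.31 under shRNA-1 and -0.48 under shRNA-2, beside 0.02 and 0.00 over all genes. Most members lay below 0 whether or not they passed, 26 under shRNA-1 and 27 under shRNA-2. The hairpins share their controls, so their values are given side by side.

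**Figure D1:**
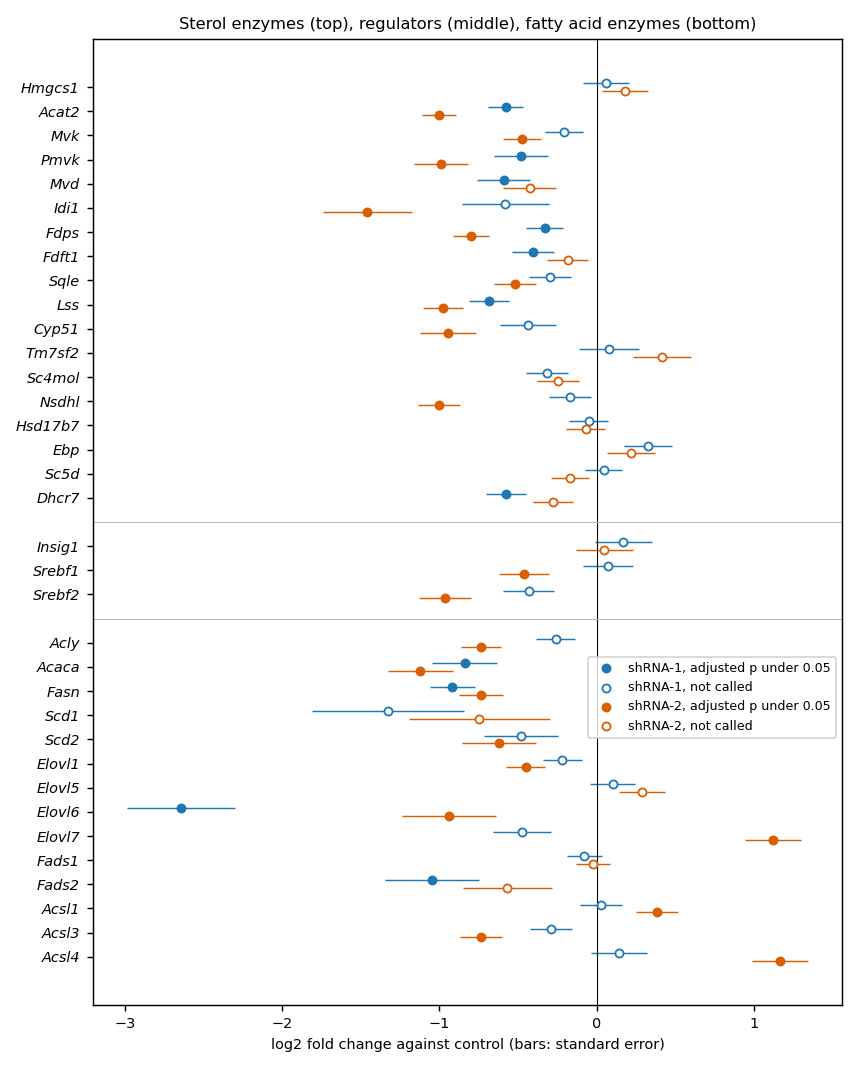
Log2 fold change of each member against the control (x axis; bars are standard errors) for shRNA-1 (blue) and shRNA-2 (orange), with filled points at an adjusted p under 0.05. Most points lie left of 0 in both colours, Elovl6 under shRNA-1 lies farthest left at -2.65, and Elovl7, Acsl4 and Acsl1 are the filled points to the right, all under shRNA-2.

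The count under shRNA-1 depended on the fit. When the log2 ribosomal RNA share entered as a covariate, 3 members were lower under shRNA-1 (Fasn, Elovl6 and Elovl7), beside 10.7% of all genes called in either direction, and 2 were lower with both hairpins. The count with both was 15 without shRNA-2 replicate 1 and 4 without control replicate 1 or without control replicate 3. The share of all genes lower with both was counted in the main fit only (9.57%), so none stands beside these counts. All genes called under shRNA-2 in either direction made up 48.7% in the main fit and 49.9% without shRNA-2 replicate 1. They made up 42.2% without control replicate 1 and 40.3% without control replicate 3. The count under shRNA-1 alone was 17 without shRNA-2 replicate 1, 6 without shRNA-1 replicate 2 or control replicate 3, and 7 without control replicate 1. The share of all genes called under shRNA-1 in either direction moved too, from 34.7% in the main fit. It was 40.2% without shRNA-2 replicate 1, 22.6% without shRNA-1 replicate 2, 22.7% without control replicate 3 and 29.2% without control replicate 1. Without shRNA-1 replicate 3 and shRNA-2 replicate 1 together, 12 members were lower under shRNA-1 and 11 with both. In that fit 33.3% of all genes were called under shRNA-1 in either direction.

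Among the first sterol steps, 5 of the 8 enzymes up to squalene fell with each hairpin, and 3 of them, Acat2, Pmvk and Fdps, fell with both. These are 62.5% with each hairpin and 37.5% with both, beside 17.3%, 24.2% and 9.57% of all genes lower under shRNA-1, shRNA-2 and both. Acat2 (chr17:12942890-12960747), the thiolase that joins acetyl-CoA units at the start of the route, measured 168, 152 and 173 CPM in the controls, 115, 106 and 109 under shRNA-1 and 87.4, 79.3 and 79.4 under shRNA-2. The 3 groups did not overlap, and the libraries of each lay close together. Acat2 was 1.49-fold lower under shRNA-1 (log2 -0.58 ± 0.11, edgeR's quasi-likelihood test, adjusted p = 0.00217) and 2.00-fold lower under shRNA-2 (-1.003 ± 0.11, 2.52e-05). The shRNA-1 value missed the threshold only with the ribosomal RNA covariate (adjusted p from 3.51e-06 to 0.0722 over the alternatives).

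Pmvk (chr3:89454541-89469013), the kinase that adds the further phosphate to mevalonate phosphate, measured 71.8, 62.9 and 78.8 CPM in the controls, 55.6, 48.0 and 49.6 under shRNA-1 and 46.6, 29.8 and 30.9 under shRNA-2. Every knockdown library lay below every control, and shRNA-2 replicates 2 and 3 lay well below replicate 1. The log2 change was -0.48 ± 0.17 under shRNA-1 (edgeR adjusted p = 0.0461) and -0.99 ± 0.17 under shRNA-2 (0.00059). The shRNA-1 call was lost when any 1 of the 6 libraries of that comparison was left out (adjusted p from 0.0545 to 0.165).

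Fdps (chr3:89093588-89101959) makes farnesyl diphosphate, the branch point to sterols, dolichol, ubiquinone and protein prenylation. Its levels were 127, 143 and 133 CPM in the controls, 112, 114 and 94.2 under shRNA-1 and 82.5, 74.6 and 74.6 under shRNA-2. The groups formed 3 steps without overlap. The log2 change was -0.33 ± 0.12 under shRNA-1 (edgeR adjusted p = 0.0461) and -0.80 ± 0.12 under shRNA-2 (0.000195). The shRNA-1 call was lost on leaving out shRNA-2 replicate 3, any single control or any single shRNA-1 library (adjusted p from 0.0596 to 0.183). Fdps shares 1124 exon bases on the same strand with Gm43738, and reads there cannot be told apart.

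Mvd (chr8:122433601-122443422), the decarboxylase that yields isopentenyl diphosphate, measured 153, 126 and 154 CPM in the controls, 104, 86.7 and 97.0 under shRNA-1 and 139, 90.9 and 91.7 under shRNA-2. All shRNA-1 libraries were below the controls, whereas shRNA-2 replicate 1 lay inside the control range and its other replicates below it. Mvd fell by 0.59 ± 0.17 on the log2 scale under shRNA-1 (edgeR adjusted p = 0.0195), and its value under shRNA-2 was -0.43 ± 0.17 (0.0555). The shRNA-2 value passed once shRNA-2 replicate 1 was left out (0.00152). The shRNA-1 call was lost without shRNA-1 replicate 2 or 3 or control replicate 1 or 3 (adjusted p from 0.0522 to 0.0825).

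Idi1 (chr13:8885501-8892451), the isomerase that interconverts the isoprenoid units, had low levels: 3.50, 2.65 and 2.87 CPM in the controls, 1.76, 1.54 and 2.77 under shRNA-1 and 0.982, 1.16 and 1.15 under shRNA-2. The shRNA-2 libraries were below all others, and shRNA-1 replicate 3 lay among the controls. Idi1 fell by 1.46 ± 0.29 under shRNA-2 (edgeR adjusted p = 0.00138), the largest fall among the sterol enzymes, and its shRNA-1 value was -0.58 ± 0.28 (0.124). The shRNA-1 value passed with total counts and without shRNA-1 replicate 3 and shRNA-2 replicate 1 together. It did not pass when only 1 library was left out.

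Of the other early enzymes, 1 fell with each hairpin. Mvk, mevalonate kinase, fell under shRNA-2 from 36.9 ± 1.61 to 26.5 ± 1.89 CPM (-0.48 ± 0.12, edgeR adjusted p = 0.00638) and was at 32.0 ± 3.22 under shRNA-1 (0.202). Fdft1, squalene synthase, fell under shRNA-1 from 17.4 ± 0.830 to 13.2 ± 0.743 CPM (-0.40 ± 0.13, 0.0361), a call lost without any 1 library of that comparison (adjusted p from 0.0574 to 0.117). Fdft1 shares 774 exon bases with Ctsb on the opposite strand, and Ctsb had 1602 to 9980 counts per library. Hmgcs1, the synthase that makes HMG-CoA, measured 83.5, 76.0 and 83.2 CPM in the controls, 89.8, 84.9 and 78.8 under shRNA-1 and 115, 78.1 and 82.0 under shRNA-2. Its groups overlapped, and neither value passed (0.06 ± 0.15 and 0.18 ± 0.15, edgeR adjusted p = 0.781 and 0.333). In the main fit, Hmgcs1 was thus the 1 early enzyme whose value lay above 0 with both hairpins. Over the alternatives its value ran from -0.19 to 0.41 under shRNA-1 and from -0.02 to 0.33 under shRNA-2. The shRNA-2 value passed only with the ribosomal RNA covariate (0.33, edgeR adjusted p = 0.0477).

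Of the 10 enzymes from squalene onward, 2 fell under shRNA-1 (Lss and Dhcr7) and 4 under shRNA-2 (Sqle, Lss, Cyp51 and Nsdhl), that is 20% and 40% beside 17.3% and 24.2% of all genes. Lss (chr10:76531588-76557138), lanosterol synthase, which closes the sterol rings, measured 49.8, 46.9 and 50.1 CPM in the controls, 31.1, 32.8 and 27.6 under shRNA-1 and 28.3, 24.1 and 22.3 under shRNA-2. All 6 knockdown libraries lay far below the narrow control range. Lss was 1.61-fold and 1.96-fold lower (log2 -0.68 ± 0.13 and -0.97 ± 0.13, edgeR adjusted p = 0.00205 and 8.5e-05). The shRNA-1 value did not pass once the ribosomal RNA share was a covariate (adjusted p from 1.56e-05 to 0.0909 over the alternatives).

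Nsdhl (chrX:72918557-72958514), a decarboxylating dehydrogenase that removes methyl groups from the ring, measured 40.8, 44.8 and 50.4 CPM in the controls, 41.8, 35.6 and 43.7 under shRNA-1 and 24.8, 22.6 and 20.4 under shRNA-2. The shRNA-1 libraries ran through the control range, and the shRNA-2 libraries stood clear below both. Nsdhl was 2.00-fold lower under shRNA-2 (-1.003 ± 0.13, edgeR adjusted p = 0.000105), and its value under shRNA-1 was -0.17 ± 0.13 (0.353). Between the hairpins Nsdhl differed by 0.84 ± 0.14 (shRNA-1 less shRNA-2, adjusted p = 0.00053), and that call held in every alternative (adjusted p at most 0.00385).

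Cyp51 (chr5:4081145-4104746), lanosterol demethylase, measured 215, 177 and 194 CPM in the controls, 153, 149 and 130.3 under shRNA-1 and 135, 80.7 and 88.6 under shRNA-2. Every knockdown library was below the controls; shRNA-2 replicate 1 lay among the shRNA-1 libraries and replicates 2 and 3 lower still. Cyp51 fell by 0.94 ± 0.18 under shRNA-2 (edgeR adjusted p = 0.00107) and stood at -0.44 ± 0.18 under shRNA-1 (0.0764). The shRNA-1 value passed without shRNA-2 replicate 1 (0.0110) or replicate 2 (0.0455), libraries outside that contrast that enter the shared estimate of the spread. Cyp51 shares 166 exon bases with Akap9 on the opposite strand.

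Dhcr7 (chr7:143823145-143848410), a reductase of the last steps to cholesterol, measured 30.7, 30.2 and 28.7 CPM in the controls, 22.3, 19.0 and 18.8 under shRNA-1 and 27.7, 23.7 and 22.5 under shRNA-2. The groups did not overlap, and here the shRNA-1 libraries were the lowest. Dhcr7 fell by 0.58 ± 0.13 under shRNA-1 (edgeR adjusted p = 0.00545), and its shRNA-2 value of -0.28 ± 0.13 did not pass (0.088). That value passed without shRNA-2 replicate 1 (0.0362), with total counts (0.0184) and without shRNA-1 replicate 3 and shRNA-2 replicate 1 together. Sqle, squalene epoxidase, known as a control point of the route, fell under shRNA-2 from 88.5 ± 3.64 to 61.8 ± 10.9 CPM (-0.52 ± 0.13, edgeR adjusted p = 0.00694) and was at 72.1 ± 4.23 under shRNA-1 (0.106, or 0.0380 without shRNA-2 replicate 1).

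The remaining late enzymes, Tm7sf2, Sc4mol (now Msmo1), Hsd17b7, Ebp and Sc5d, did not pass with either hairpin. Ebp, the sterol isomerase, measured 200.3, 151 and 129 CPM in the controls, 221, 190.2 and 190.5 under shRNA-1 and 189.5, 187 and 182 under shRNA-2, and the wide control range overlapped both hairpins (edgeR adjusted p = 0.122 and 0.263). Without control replicate 1, the highest control, Ebp passed as higher with both hairpins (0.0154 and 0.0241). Tm7sf2, a sterol reductase, was at 0.42 ± 0.19 under shRNA-2 (0.081) and passed without shRNA-2 replicate 3 (0.0272) or control replicate 1 (0.0368). It shares 532 exon bases on the same strand with Vps51. Hsd17b7 and Sc5d had fitted values between -0.17 and 0.05 with both hairpins, and Sc4mol was at -0.31 and -0.25. The late steps thus held both the clear falls of Lss and Nsdhl and several enzymes with values near those of the controls.

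**Figure D2:**
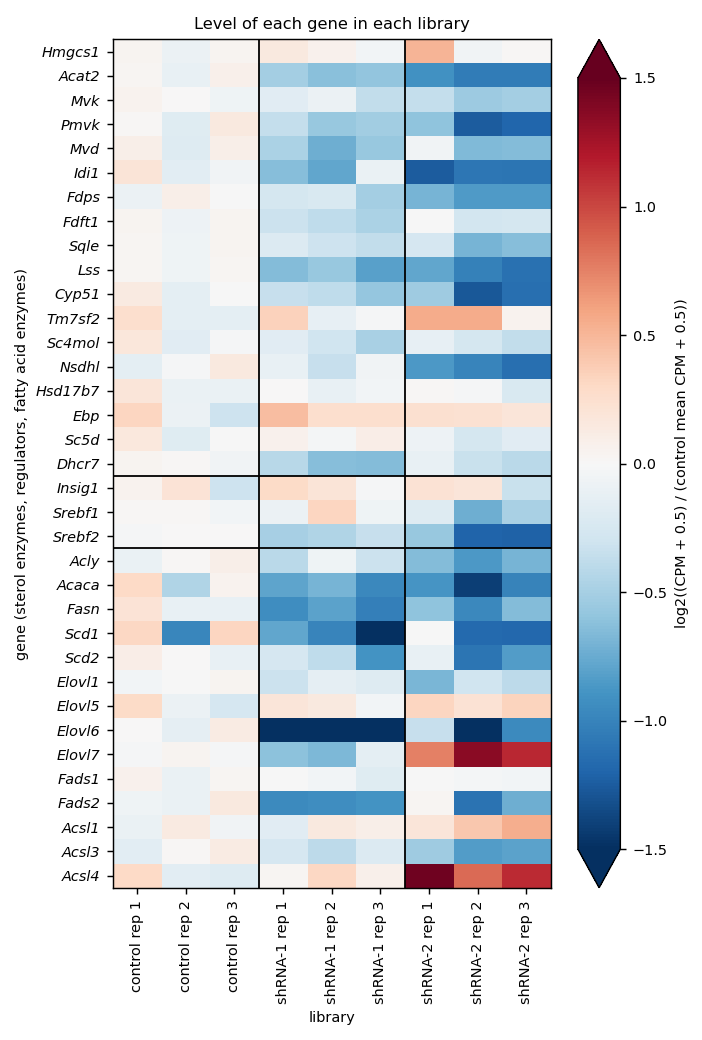
Level of each member (rows, ordered by role) in each of the 9 libraries (columns), as the log2 ratio of CPM to the control mean with 0.5 CPM added to both. Blue marks lower and red higher values on a scale that stops at -1.5 and 1.5. The shRNA-2 replicate 1 column is paler than those of replicates 2 and 3, and the Elovl6 row is darkest in the shRNA-1 columns.

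Of the 3 regulators, none passed under shRNA-1, and Srebf1 and Srebf2 fell under shRNA-2, beside 17.3% and 24.2% of all genes lower with these hairpins. Srebf2 (chr15:82147181-82205379), which encodes SREBP-2, measured 165, 168 and 167 CPM in the controls, 118, 121 and 131 under shRNA-1 and 112, 71.8 and 71.6 under shRNA-2. The controls agreed closely with each other, all shRNA-1 libraries lay below them, and all shRNA-2 libraries lay lower again. Srebf2 was 1.95-fold lower under shRNA-2 (log2 -0.96 ± 0.16, edgeR adjusted p = 0.00052). Its shRNA-1 value of -0.43 ± 0.16 missed the threshold (0.0586) and passed without shRNA-2 replicate 1 (0.00437) or replicate 2 (0.0400).

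Srebf1 (chr11:60199089-60222581), which encodes SREBP-1, measured 29.8, 29.8 and 28.3 CPM in the controls, 27.6, 36.7 and 28.1 under shRNA-1 and 25.5, 17.5 and 20.7 under shRNA-2. All shRNA-2 libraries were below the controls, whereas the shRNA-1 libraries lay on both sides of them. Srebf1 fell by 0.46 ± 0.16 under shRNA-2 (edgeR adjusted p = 0.0305), a call lost without shRNA-2 replicate 2 or 3 or without any 1 control (adjusted p from 0.0695 to 0.0991), and stood at 0.07 ± 0.16 under shRNA-1 (0.749). Srebf1 shares 109 exon bases with Rai1 on the opposite strand, and the counts do not separate its SREBP-1a and SREBP-1c transcripts. Insig1, the sterol-sensitive anchor of SREBP proteins and itself a known SREBP target, measured 22.7, 25.4 and 17.6 CPM in the controls, 26.9, 25.2 and 21.7 under shRNA-1 and 25.6, 24.9 and 17.3 under shRNA-2. Its groups overlapped, and its values were 0.17 ± 0.18 and 0.05 ± 0.18 (edgeR adjusted p = 0.502 and 0.836). Within the regulators, the RNA of both factors was lower under shRNA-2 while that of their anchor passed no test.

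Of the 3 enzymes that supply carbon and assemble the fatty acid chain, 2 fell under shRNA-1 and all 3 under shRNA-2, beside 17.3% and 24.2% of all genes. Fasn (chr11:120805846-120824547), fatty acid synthase, measured 274, 220.4 and 219 CPM in the controls, 125, 137 and 117 under shRNA-1 and 156, 121 and 151 under shRNA-2. Every knockdown library was below every control, and the hairpins overlapped each other. Fasn was 1.89-fold lower under shRNA-1 (log2 -0.92 ± 0.14, edgeR adjusted p = 0.000833) and 1.67-fold lower under shRNA-2 (-0.74 ± 0.14, 0.00111). Both calls held in every alternative, the ribosomal RNA covariate included.

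Acaca (chr11:84129672-84401651), acetyl-CoA carboxylase, which commits carbon to fatty acids, measured 24.9, 14.7 and 21.04 CPM in the controls, 11.5, 12.3 and 10.2 under shRNA-1 and 10.7, 7.27 and 9.85 under shRNA-2. The controls were spread widely, yet every knockdown library lay below the lowest of them. Acaca was 1.79-fold and 2.18-fold lower (-0.84 ± 0.21 and -1.12 ± 0.21, edgeR adjusted p = 0.00927 and 0.000896). The shRNA-1 call was lost with the ribosomal RNA covariate (0.304, the highest of the alternatives).

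Acly (chr11:100476353-100528000), ATP citrate lyase, which provides acetyl-CoA to both routes, measured 193, 210.0 and 220.4 CPM in the controls, 157, 198 and 166 under shRNA-1 and 132, 114 and 128 under shRNA-2. The shRNA-2 libraries stood apart below all others, and shRNA-1 replicate 2 lay inside the control range. Acly fell by 0.74 ± 0.13 under shRNA-2 (edgeR adjusted p = 0.000546) and was at -0.26 ± 0.13 under shRNA-1 (0.129).

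The elongases moved in opposite directions. Elovl6 (chr3:129532355-129638495), which lengthens palmitate to stearate, measured 18.3, 16.6 and 19.9 CPM in the controls, 3.95, 2.69 and 2.21 under shRNA-1 and 14.3, 4.87 and 9.17 under shRNA-2. The 3 shRNA-1 libraries stood far below all others, and the shRNA-2 libraries were spread from near the controls to near the shRNA-1 level. Elovl6 was 6.26-fold lower under shRNA-1 (log2 -2.65 ± 0.34, edgeR adjusted p = 0.000348), the largest change of any member against the controls, and the call held in every alternative. With shRNA-2 it was 1.92-fold lower (-0.94 ± 0.30, 0.0211), a call that needed shRNA-2 replicate 3 and control replicates 1 and 3, and was lost on leaving out any of them (adjusted p from 0.0578 to 0.0738).

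Elovl7 (chr13:108214404-108285683), an elongase of long and very long chains, measured 15.8, 16.4 and 15.7 CPM in the controls, 10.2, 9.83 and 14.4 under shRNA-1 and 27.3, 41.4 and 35.5 under shRNA-2. The shRNA-2 libraries were all above the tightly grouped controls, and the shRNA-1 libraries were all below them. Elovl7 was 2.18-fold higher under shRNA-2 (1.12 ± 0.18, edgeR adjusted p = 0.000321), while its shRNA-1 value of -0.47 ± 0.19 missed the threshold (0.0667) and passed without shRNA-1 replicate 3 or shRNA-2 replicate 1 or 2 (adjusted p from 0.0261 to 0.0467). Elovl1, which makes very long chains, fell under shRNA-2 from 127 ± 3.34 to 92.8 ± 12.8 CPM (-0.45 ± 0.12, edgeR adjusted p = 0.0101) and was at 109 ± 7.12 under shRNA-1 (0.194). Elovl5, an elongase of polyunsaturated chains, passed with neither hairpin (0.10 and 0.29, edgeR adjusted p = 0.619 and 0.116), but was higher under shRNA-2 without control replicate 1 (0.0142).

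Of the 4 desaturases, 1 fell with each hairpin (25%, beside 17.3% and 24.2% of all genes), and both calls were lost on leaving out single libraries. Fads2 (chr19:10062765-10101746), which starts the desaturation of polyunsaturated chains, had low levels of 5.32, 5.17 and 6.23 CPM in the controls, 2.64, 2.69 and 2.77 under shRNA-1 and 5.71, 2.32 and 3.17 under shRNA-2. The shRNA-1 libraries agreed closely with each other, while shRNA-2 replicate 1 lay among the controls and its other replicates near the shRNA-1 level. Fads2 fell by 1.05 ± 0.30 under shRNA-1 (edgeR adjusted p = 0.0183), a call lost without shRNA-1 replicate 2 or control replicate 3 (0.0608 and 0.0677). Its shRNA-2 value of -0.57 ± 0.28 (0.114) passed without shRNA-2 replicate 1 (0.00372).

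Scd2 (chr19:44293674-44306864), a stearoyl-CoA desaturase, measured 319, 299 and 275 CPM in the controls, 250.4, 229 and 160.2 under shRNA-1 and 276, 139 and 167 under shRNA-2. In shRNA-2 replicate 1 it was at the lower edge of the control range, and it was lower in the other knockdown libraries. Scd2 fell by 0.62 ± 0.23 under shRNA-2 (edgeR adjusted p = 0.0447), a call lost on leaving out any single control, replicate 2 or 3 of shRNA-2 or replicate 2 of shRNA-1 (adjusted p from 0.0599 to 0.146). Its shRNA-1 value of -0.48 ± 0.23 (0.131) passed without shRNA-2 replicate 1 (0.0287). Scd1, a close paralog whose reads may be shared with Scd2, was scattered at 7.55, 2.78 and 7.65 CPM in the controls, 3.29, 2.76 and 1.20 under shRNA-1 and 5.95, 2.40 and 2.36 under shRNA-2. Its groups overlapped, since control replicate 2 was as low as most knockdown libraries, and neither value passed (-1.33 ± 0.48 and -0.75 ± 0.45, edgeR adjusted p = 0.0507 and 0.19). Without control replicate 2 or shRNA-2 replicate 1 the shRNA-1 value passed (0.0226 and 0.0177), and without shRNA-2 replicate 1 the shRNA-2 value did too (0.0233). Fads1, the next desaturase of the polyunsaturated route, passed with neither hairpin (-0.08 and -0.02, edgeR adjusted p = 0.618 and 0.877).

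The acyl-CoA synthetases, which activate free fatty acids, included members that rose. Acsl4 (chrX:142317993-142390535), known for its preference for arachidonic acid, measured 78.3, 56.9 and 55.4 CPM in the controls, 64.7, 79.0 and 67.0 under shRNA-1 and 175, 115 and 138 under shRNA-2. The shRNA-2 libraries were all above the other groups, and the shRNA-1 libraries overlapped the controls. Acsl4 was 2.25-fold higher under shRNA-2 (1.17 ± 0.18, edgeR adjusted p = 0.00026) and stood at 0.15 ± 0.18 under shRNA-1 (0.562).

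Acsl1 (chr8:46471037-46536051), the long-chain synthetase known from fat, liver and muscle, measured 54.5, 64.1 and 56.2 CPM in the controls, 51.8, 64.4 and 62.1 under shRNA-1 and 66.2, 77.3 and 85.0 under shRNA-2. The shRNA-2 libraries began just above the highest control. Acsl1 rose by 0.39 ± 0.13 under shRNA-2 (edgeR adjusted p = 0.0319), a call lost without shRNA-2 replicate 2 or 3 or control replicate 1 or 3 (adjusted p from 0.0556 to 0.120) and when libraries were scaled by total counts (0.354, the highest of the alternatives). Acsl3 (chr1:78657825-78707743), a synthetase of lipid droplets, went the other way, with 25.6, 29.0 and 31.2 CPM in the controls, 23.8, 21.6 and 24.7 under shRNA-1 and 19.51, 15.7 and 16.2 under shRNA-2. Its shRNA-2 libraries were the lowest of all 9. Acsl3 fell by 0.74 ± 0.13 under shRNA-2 (edgeR adjusted p = 0.000876) and stood at -0.29 ± 0.13 under shRNA-1 (0.115). Acsl3 shares 244 exon bases on the same strand with Utp14b, and Acsl1 shares 1039 with Gm45244 on the opposite strand.

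**Figure D3:**
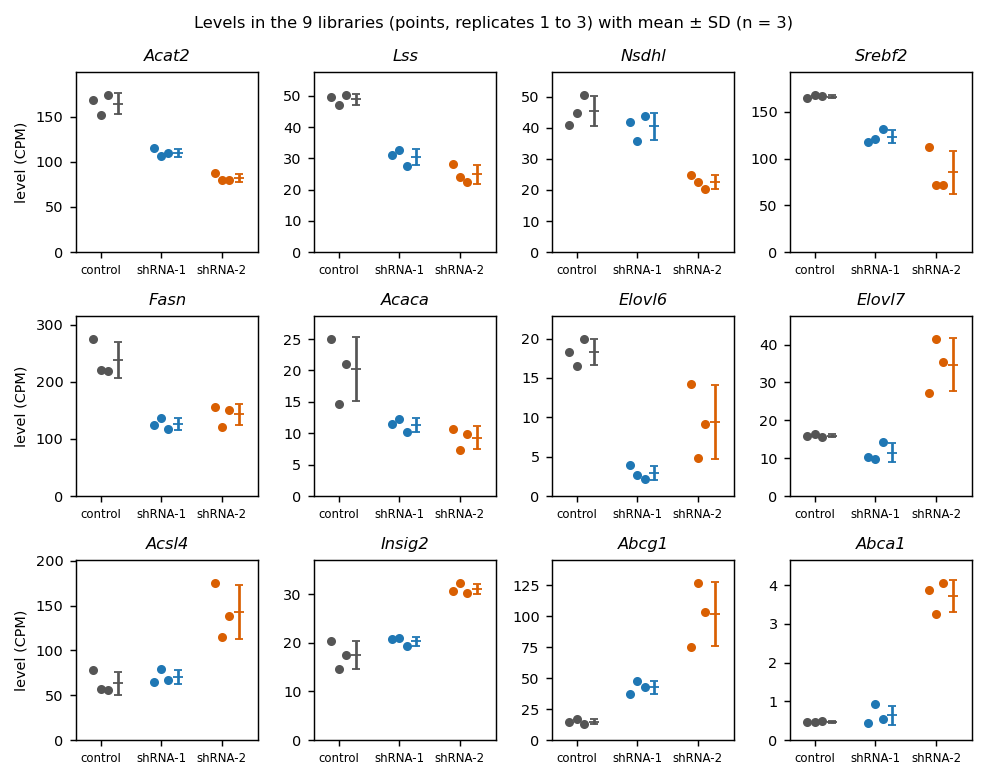
Level in CPM (y axis, from 0) of 12 genes in the 9 libraries, as points in replicate order for control (grey), shRNA-1 (blue) and shRNA-2 (orange), with mean ± SD (n = 3) beside them. Acat2, Lss, Fasn and Acaca are lower with both hairpins, Nsdhl is lower under shRNA-2, Elovl6 is lowest under shRNA-1, and Elovl7, Acsl4, Insig2 and Abca1 are high under shRNA-2.

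Sterol enzymes and fatty acid enzymes were set against each other. Of the 18 sterol enzymes, 7 fell under shRNA-1, 9 under shRNA-2 and 4 with both, and none rose. Of the 14 fatty acid enzymes, 4 fell under shRNA-1, 7 under shRNA-2 and 3 with both, while 3 rose under shRNA-2. Of all genes 17.3% were lower and 17.4% higher under shRNA-1, 24.2% and 24.4% under shRNA-2, and 9.57% lower with both. The median log2 fold change of the sterol enzymes was -0.32 under shRNA-1 and -0.45 under shRNA-2, and that of the fatty acid enzymes was -0.38 and -0.59. The fatty acid enzymes were the more mixed group: under shRNA-2 they ran from -1.12 to 1.17, and the sterol enzymes from -1.46 to 0.42. All 3 rises were among elongases and acyl-CoA synthetases, and none was among the enzymes that assemble the chain.

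Library by library, the median log2 level of the sterol enzymes relative to the control mean was -0.23, -0.33 and -0.42 under shRNA-1 and -0.18, -0.61 and -0.57 under shRNA-2. That of the fatty acid enzymes was -0.36, -0.39 and -0.26 under shRNA-1 and -0.06, -0.85 and -0.67 under shRNA-2. The controls lay between -0.10 and 0.05 for the sterol enzymes and between -0.09 and 0.04 for the fatty acid enzymes. The knockdown libraries thus lay below the controls for both roles, apart from shRNA-2 replicate 1, which fell within the control range for the fatty acid enzymes. The sterol median minus the fatty acid median was 0.13, 0.06 and -0.16 in the shRNA-1 libraries and -0.12, 0.25 and 0.10 in the shRNA-2 libraries. The difference between the roles therefore changed sign among replicates of each hairpin and was within the spread between libraries. Summed levels were lower in both roles, going for the sterol enzymes from 1596 ± 113 CPM in the controls to 1339 ± 84.0 and 1194 ± 145, and for the fatty acid enzymes from 1294 ± 80.7 to 1023 ± 81.5 and 1095 ± 120 (mean ± SD, n = 3, no test).

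**Figure D4:**
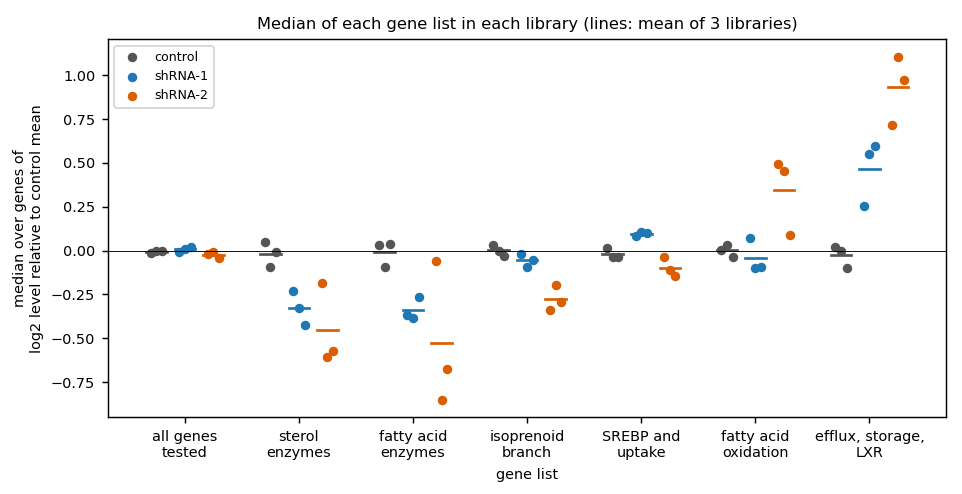
Median over each gene list of the log2 level relative to the control mean (y axis), 1 point per library in replicate order, with lines at the mean of 3 libraries. Sterol and fatty acid enzymes lie below 0 in the knockdown libraries by like amounts, the list of efflux, storage and LXR genes lies above 0, and shRNA-2 replicate 1 is the highest shRNA-2 point for both enzyme roles.

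The hairpins differed from each other in 13 members, of which 10 were higher (28.6%) and 3 were lower (8.57%) under shRNA-1 than under shRNA-2, beside 19.7% and 21.3% (41.0% in all) of the genes tested. The 10 were Acat2, Pmvk, Idi1, Fdps, Cyp51, Nsdhl, Srebf1, Srebf2, Acly and Acsl3. The 3 were Elovl6 (-1.70 ± 0.35, edgeR adjusted p = 0.00238), which fell further under shRNA-1, and Elovl7 (-1.59 ± 0.19, 5.35e-05) and Acsl4 (-1.02 ± 0.18, 0.000867), which rose under shRNA-2. Syncrip itself was lower under shRNA-1. Against the controls, more members were lower under shRNA-2 (18) than under shRNA-1 (11), as were more of all genes (24.2% and 17.3%). The part of the depth of knockdown was not tested. The count of 10 was 4 without shRNA-2 replicate 2 or without replicate 3, 5 without shRNA-1 replicate 2, and 6 without shRNA-1 replicate 1 or 3. Of all genes, 5192 of 12663 differed in either direction in the main fit. The numbers were 5249 of 12875 and 4028 of 12844 without shRNA-2 replicate 2 or 3. They were 4232 of 12975, 4090 of 12954 and 4380 of 12960 without shRNA-1 replicate 1, 2 or 3.

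Within shRNA-2, replicate 1 was the library nearest to the controls for 16 of the 18 members lower with that hairpin and for 2 of the 3 higher. It also had the lowest ribosomal RNA share of the 3 shRNA-2 libraries. Its sums of neutrophil markers (35293 CPM) and of monocyte and macrophage markers (1232 CPM) were the smallest of the 3. The part of any of these in the members' levels was not tested. Left out, the median log2 fold change under shRNA-2 was -0.59 for sterol and -0.78 for fatty acid enzymes.

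Neighbouring gene lists placed the 2 routes in context. Of 22 tested genes for SREBP processing, sterol uptake and other SREBP targets, 1 rose and 2 fell under shRNA-1, 4 rose and 6 fell under shRNA-2, and 1 fell with both, with medians of 0.09 and -0.10. Beside all genes (17.4% higher and 17.3% lower under shRNA-1, 24.4% and 24.2% under shRNA-2, 9.57% lower with both), the shares in the same order were 4.55%, 9.09%, 18.2%, 27.3% and 4.55%. The gene lower with both was Acacb, the mitochondrial form of acetyl-CoA carboxylase, at 4.31, 5.04 and 4.47 CPM in the controls, 1.21, 2.53 and 2.49 under shRNA-1 and 2.64, 1.78 and 1.62 under shRNA-2 (-1.12 ± 0.29 and -1.18 ± 0.28, edgeR adjusted p = 0.012 and 0.00469). Both groups lay below the controls without overlap, and the shRNA-1 call was lost with the ribosomal RNA covariate (0.201). Insig2, the anchor not known as an SREBP target, picked after its values were seen, rose under shRNA-2 from 17.5 ± 2.86 to 31.1 ± 1.05 CPM (0.83 ± 0.14, edgeR adjusted p = 0.000405) and was at 20.3 ± 0.915 under shRNA-1 (0.245).

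By its medians, the list of sterol efflux, storage and LXR target genes moved the opposite way to the enzymes. LXR factors are nuclear receptors for oxysterols that switch on cholesterol export. Of 13 tested genes, 6 rose under shRNA-1, 8 under shRNA-2 and 5 with both, and none was called lower. The medians were 0.48 and 1.18. Fitted values lay below 0 for 3 of the 13 under shRNA-1 and 2 under shRNA-2. Apoe was among them (-1.81 ± 0.66 and -0.98 ± 0.57, edgeR adjusted p = 0.0519 and 0.173). Soat2 did not pass the filter on low counts. It measured 0.507, 0.663 and 1.33 CPM in the controls, and at most 0.307 under shRNA-1 and 0.155 under shRNA-2. Apoe and Soat2 were picked after their values were seen. The shares that rose were 46.2%, 61.5% and 38.5%, beside 17.4%, 24.4% and 9.24% of all genes. Abcg1, a cholesterol exporter, measured 14.9, 16.6 and 13.0 CPM in the controls, 37.3, 47.9 and 42.8 under shRNA-1 and 75.2, 126 and 103 under shRNA-2. The groups rose in 3 steps without overlap, 2.89-fold and 6.87-fold above the controls (log2 1.53 ± 0.19 and 2.78 ± 0.19, edgeR adjusted p = 0.000258 and 1.79e-06). Mylip, a ubiquitin ligase and known LXR target, rose alike with both, from 2.74, 1.66 and 2.17 CPM in the controls to 6.81, 7.99 and 9.23 and 6.44, 9.13 and 8.57 (1.86 ± 0.24 and 1.86 ± 0.23, edgeR adjusted p = 0.000313 and 6.76e-05). Abca1, the partner exporter, picked after its values were seen, rose under shRNA-2 from 0.456, 0.464 and 0.486 to 3.87, 3.25 and 4.05 CPM (2.97 ± 0.30, edgeR adjusted p = 1.51e-05) and was at 0.439, 0.922 and 0.554 under shRNA-1 (0.35). Several genes of this list, such as Abca1, Abcg1 and Lipa, are also known from mature myeloid cells. As given above, summed neutrophil markers were higher with both hairpins. Summed monocyte and macrophage markers were higher under shRNA-2 and overlapped the controls under shRNA-1. The part of those cells was not tested.

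In the isoprenoid branch, which leaves the sterol route after Fdps, 3 of 14 genes rose and 2 fell under shRNA-1, 1 rose and 6 fell under shRNA-2, and 2 fell with both. The shares under shRNA-1, 21.4% higher and 14.3% lower, were near those of all genes (17.4% and 17.3%), and those under shRNA-2 were 7.14% and 42.9%, beside 24.4% and 24.2%. The share lower with both was 14.3%, beside 9.57% of all genes. Fntb, the beta subunit of protein farnesyltransferase, measured 18.1, 20.4 and 18.8 CPM in the controls, 6.70, 6.91 and 6.46 under shRNA-1 and 14.1, 12.5 and 15.1 under shRNA-2. The 3 groups did not overlap, and shRNA-1 was the lowest (-1.51 ± 0.14 and -0.46 ± 0.13, edgeR adjusted p = 4.94e-05 and 0.0124, the latter 0.0616 without control replicate 2). Icmt, the methyltransferase that finishes prenylated proteins, was lower by 0.52 ± 0.17 and 0.49 ± 0.17 on the log2 scale (edgeR adjusted p = 0.0361 and 0.0312). The Icmt calls were each lost without any 1 of 5 libraries, for shRNA-1 all of that comparison but shRNA-1 replicate 1 (adjusted p from 0.0620 to 0.134) and for shRNA-2 all but shRNA-2 replicate 2 (0.0607 to 0.109).

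Fatty acid oxidation and import, the route that burns what the enzymes above build, had 21 tested genes, of which 3 rose and 4 fell under shRNA-1, and 9 rose and 2 fell under shRNA-2. The shares under shRNA-1, 14.3% higher and 19.0% lower, were near those of all genes (17.4% and 17.3%), and those under shRNA-2 were 42.9% and 9.52%, beside 24.4% and 24.2%; the difference between the hairpins in these shares was not tested. Higher with both were 2 genes (9.52%), a share near the 9.24% of all genes. They were Slc25a20, the carnitine carrier of the mitochondrion (0.53 ± 0.14 and 0.46 ± 0.14, edgeR adjusted p = 0.0129 and 0.0171), and Hadhb, the thiolase subunit of the trifunctional protein (0.56 ± 0.19 and 0.58 ± 0.18, 0.0357 and 0.0212). All of these 4 calls were lost when libraries were scaled by total counts, a scaling that moved the median of all genes to -0.23 and -0.21. With the ribosomal RNA covariate the Slc25a20 call under shRNA-1 (0.155) and both Hadhb calls (0.448 and 0.0621) were lost. The Slc25a20 call under shRNA-1 was also lost without shRNA-1 replicate 3 (0.0663). Those of Hadhb were lost under shRNA-1 without shRNA-1 replicate 1 or 2 or control replicate 3 (adjusted p from 0.0539 to 0.154), and under shRNA-2 without shRNA-2 replicate 2 or control replicate 3 (0.0541 and 0.0725).

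**Figure D5:**
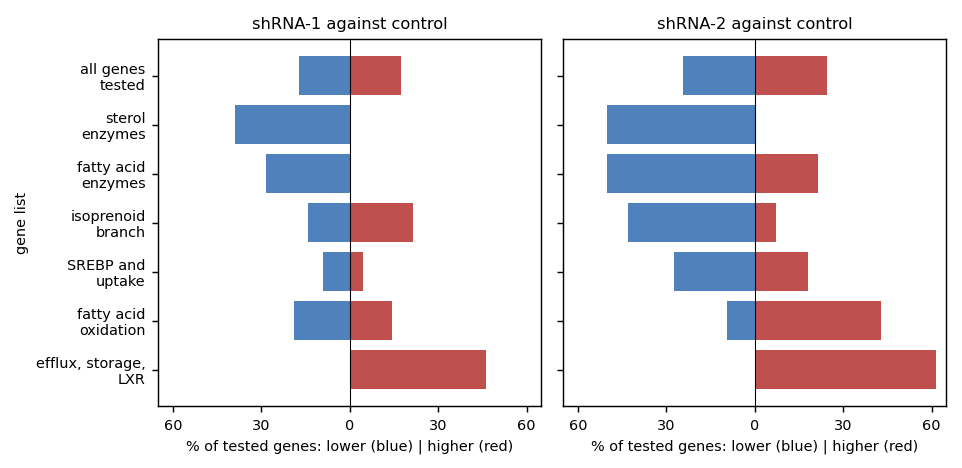
Share of each list's tested genes that were lower (blue, left) or higher (red, right) than the controls at an adjusted p under 0.05, in percent, for shRNA-1 (left panel) and shRNA-2 (right panel). Sterol enzymes have no red bar in either panel, the efflux, storage and LXR list has no blue bar, and all genes tested have bars of like length on both sides.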

How the data were processed

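The authors deposited raw read counts per gene symbol, 1 table for each of the 9 libraries. Per the labels' protocols, cDNA was primed with oligo-dT and the other strand with random decamers, a chemistry that starts from poly(A) tails. The submitters' processing notes name STAR 2.3.0e, HTSeq 0.6.0 and mm10. The sources used here name neither the annotation release nor the strand setting, so reads of overlapping genes cannot be told apart. Entries that shared a symbol were summed (429 of 39179, none of them members).

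Genes were filtered with filterByExpr, which kept 12663 genes and removed 0.0908% of counts, and libraries were scaled with TMM factors. A single model of the 9 libraries, with group as its only factor, gave the contrasts by edgeR's quasi-likelihood test (edgeR 4.0.16, R 4.3.3), with Benjamini-Hochberg adjustment over all 12663 genes and a threshold of 0.05. The scripts were tested on simulated data. Log2 fold changes are given ± standard error and levels as mean ± SD. A total of 9 libraries, 3 per group, limits the precision. Ribosomal RNA is the sum of Gm26924, mt-Rnr1 and mt-Rnr2, where Gm26924 is read so from general knowledge. Positions and exon overlaps came from GENCODE M21 and upstream stretches from RefSeq, both on GRCm38.

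The members, the gene lists and the tests were chosen with earlier results of these data known. All members are named or counted, and some genes of the neighbouring lists are not reported here. Values in every library are given for members called with both hairpins and for up to 5 called rises and falls per role and comparison, and context lists name up to 2 rises and 2 falls called with both hairpins. Alternatives for scaling were DESeq2 size factors and total counts, and for the filter none or at least 5 CPM in 3 libraries. Alternatives for the test were DESeq2 1.42.0 and limma-voom (limma 3.58.1). Further fits blocked on replicate number, held only the compared groups, added the log2 ribosomal RNA share, or dropped 1 library at a time. Leaving out shRNA-1 replicate 3 and shRNA-2 replicate 1 together was added after the data were seen. They were picked as the highest and the lowest ribosomal RNA share of their groups, without a test for outliers. In shRNA-2, replicate 2 had 15.8% and replicate 1 had 6.10%, beside a group mean of 10.7%.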

Additional observations from a re-analysis of the deposited data

Results flagged for a closer look

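The difference between the hairpins themselves passed edgeR's quasi-likelihood test in 13 of the 35 members (shRNA-1 minus shRNA-2 on the log2 scale). With shRNA-1, 28.6% of members were higher and 8.57% lower, beside 19.7% and 21.3% (41.0% in all) of the genes tested. The members as a set therefore did not differ between the hairpins more often than all genes. Higher with shRNA-1 were Idi1 (0.88), Nsdhl (0.84), Srebf1 (0.54), Srebf2 (0.53), Pmvk (0.51), Cyp51 (0.51), Acly (0.48), Fdps (0.47), Acsl3 (0.45) and Acat2 (0.42). Lower with shRNA-1 were Elovl6 (-1.70), Elovl7 (-1.59) and Acsl4 (-1.02). The differences of Acat2, Fdps, Nsdhl, Elovl6, Elovl7 and Acsl4 held in every alternative. Those of the other 7 were lost when some 1 library was left out: Pmvk without shRNA-1 replicate 1, 2 or 3, shRNA-2 replicate 2 or 3 or control replicate 1 (adjusted p from 0.0552 to 0.127), Idi1 without any 1 library other than shRNA-1 replicate 2 and control replicate 1 (0.0538 to 0.189), Cyp51 without any 1 other than shRNA-1 replicate 3 and shRNA-2 replicate 1 (0.0568 to 0.140), Srebf1 without shRNA-1 replicate 2 or shRNA-2 replicate 2 or 3 (0.0572 to 0.106), Srebf2 without shRNA-1 replicate 2 or 3 or shRNA-2 replicate 2 or 3 (0.0534 to 0.0925), Acly without shRNA-1 replicate 2 (0.0615) and Acsl3 without shRNA-1 replicate 1 or 3 or shRNA-2 replicate 2 or 3 (0.0559 to 0.0759).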

How the results depend on the processing

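Of the 32 member calls against the controls, 19 held in every alternative, 12 were lost with the ribosomal RNA covariate, 9 when some 1 library was left out and 0 with the replicate block; no gene reversed a call. With shRNA-1, members lower than the controls (11) numbered 23 with total counts, 17 with the replicate block, 17 with only the groups compared and 3 with the covariate, and 6 to 17 when 1 library was left out. The share of all genes called under shRNA-1 in either direction (34.7%) was 35.9%, 39.2%, 43.0% and 10.7% in these 4 fits. It was 22.6% to 40.2% when 1 library was left out. Members higher with shRNA-1 (0) numbered 1 with the replicate block and 0 to 1 when 1 library was left out, and members higher with shRNA-2 (3) 2 to 5. Members higher with shRNA-1 than with shRNA-2 (10) numbered 5 with total counts and 6 with only the groups compared, and from 4 upward when 1 library was left out. Members lower with both hairpins (7) numbered 19 with total counts, 2 with the covariate and 4 to 15 when 1 library was left out. They numbered 11 with no filter, with the replicate block and with only the groups compared. They also numbered 11 without shRNA-1 replicate 3 and shRNA-2 replicate 1 together. The share of all genes lower with both (9.57% in the main fit) was not counted in these fits. Members higher with both (0) numbered 0 to 1. The shRNA-1 median was -0.57 for sterol and -0.63 for fatty acid enzymes with total counts, and -0.078 and -0.13 with the covariate. Total counts moved the median of all genes to -0.23 and -0.21, against which members must be read. The covariate moves with the groups, so ribosomal RNA and knockdown cannot be told apart there, and the cause of the other shifts was not tested. The labels do not say that replicate numbers pair the samples, and correlations of same-numbered deviations lay between -0.13 and 0.34. With the replicate block, 39.2% of all genes were called under shRNA-1 and 52.5% under shRNA-2, beside 34.7% and 48.7% in the main fit. Whether same-numbered samples share a source of variation was not tested further.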
